A study of Zea mays with 27 samples.

Results

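S-adenosylmethionine synthetase sam2 (gene symbol LOC542733) was followed across 27 dual-colour cDNA arrays of maize leaf RNA. All spots annotated with this symbol were taken, which gave 96 spots and, with 3 spots per cDNA, 32 cDNAs of 5400 on the array. All 32 had a value on each of the 27 arrays. The gene was singled out with its values under the LE filter already known, so those values are a description and are not used as evidence.

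The enzyme joins methionine to ATP and releases S-adenosylmethionine, the methyl donor of the cell. Plants use this product to methylate lignin precursors, the head groups of phospholipids, DNA and histones, and they also build ethylene, polyamines and nicotianamine from it. Methionine for the reaction comes from the pathway that starts with cystathionine gamma-synthase, and the spent donor is recycled to homocysteine.

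RNA came from adult leaves of 4 genotypes labelled b,pl, B,Pl, bz2 and mutator. The regulatory genes B and Pl switch on the anthocyanin pathway, while the Bz2 product is a glutathione S-transferase that anthocyanin needs to reach the vacuole. The labels do not describe the mutator line further and do not spell out the filter names. Plants stood under a filter labelled CA, PE or LE, or 1 day had passed since the PE filter was taken off (here PE removed), or they were greenhouse plants, taken after 8 h of added UV-B or without UV-B. Of the 9 b,pl arrays, 2 carried LE RNA, 2 PE, 2 PE removed, 2 UV-B and 1 no UV-B. The 9 B,Pl arrays were 3 of PE, 2 of CA, 2 of PE removed, 1 of LE and 1 of UV-B. The 5 bz2 arrays were 2 of LE and 1 each of the filters CA and PE and of UV-B, and the 4 mutator arrays 1 of each of these. The other channel of an array held b,pl CA RNA, except on the LE and PE arrays of bz2 and mutator, the LE array of B,Pl and B,Pl PE replicate 1, where it held the CA RNA of the same genotype. Separate plants behind the arrays of a group are not stated in the labels, so the errors given here measure the spread between arrays, which may be technical. Log ratios carry no level, so the leaf origin could not be checked from marker genes. In whole leaf RNA, fewer cells of a type and less RNA per cell cannot be told apart.

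Deposited values were log2 ratios of the channels. Each array was centred on its median, and a value was given the sign of the dye, positive for a group in Cy5 and turned for a group in Cy3. A positive value means more sam2 RNA in the group if the deposited ratio is Cy5 over Cy3, and less if it is Cy3 over Cy5, which the sources used here do not settle. Some single orientations are uncertain beyond that. The b,pl array UV-B replicate 2 and the array PE removed replicate 1 of that genotype both had the group in Cy3 and b,pl CA in Cy5. They correlated at Pearson −0.40 over cDNAs. The 2 arrays hold RNA of different conditions, so this correlation cannot tell whether either is reversed. On 4 further arrays (bz2 CA, mutator CA, B,Pl PE replicate 2 and the second of b,pl PE removed) the title and the channel 2 source name give different dyes, and the titles were followed. Read by dye, the median residual variance over all cDNAs was 0.168 and that of the sam2 median 0.120, against 0.216 and 0.151 when values were read as group over other channel. With the 4 arrays of conflicting labels turned it was 0.166 over all cDNAs and 0.074 for the sam2 median, both lower than in the reading used. Turning bz2 CA or mutator CA alone left the values at 0.168 and 0.120, since each is the only array that links its CA group to b,pl CA. The residual variance therefore cannot tell the direction of those CA arrays, and the fall came from the other arrays of the 4. With 1 array turned at a time, the sam2 value was lowest, at 0.084, for b,pl PE replicate 1. Turning the other b,pl PE array instead gave 0.089, so the variance does not tell which of them would be reversed. It was 0.090 when B,Pl PE replicate 2 was turned. In the b,pl PE removed group, turning the first array gave 0.089 and turning the second gave 0.101. The second B,Pl PE removed array gave 0.113. Over all cDNAs the lowest value was 0.152, with B,Pl PE replicate 3 turned, which left the sam2 value at 0.120. Turning b,pl UV-B replicate 2 raised the residual variance to 0.205 over all cDNAs and to 0.327 for the sam2 median.

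On the LE arrays the sam2 median over its 32 cDNAs was positive on 6 of 6 arrays. It was 0.18 and 0.61 on the b,pl arrays, 1.10 on the B,Pl array, 0.44 and 0.61 on the bz2 arrays and 0.76 on the mutator array. The lowest of these, b,pl LE replicate 1, lay at the 75.6th percentile of the cDNAs of its array and the highest, B,Pl LE, at the 95.6th. Of the 32 cDNAs, 22 were positive on b,pl LE replicate 1 and 30 or 31 on each of the other 5 LE arrays.

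The greenhouse arrays with UV-B were positive on 5 of 5. The sam2 median was 0.63 and 0.92 for b,pl, 0.47 for B,Pl, 0.44 for bz2 and 0.21 for mutator, each against b,pl CA. Between 27 and 31 of the 32 cDNAs were positive on each of them. The greenhouse array of b,pl with no UV-B stood at 0.19, with 26 of 32 positive, below both b,pl UV-B arrays.

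The PE arrays fell on both sides of 0. The sam2 median was −0.52 and 0.60 for b,pl, −0.13, −0.56 and 0.55 for B,Pl, −0.23 for bz2 and 0.06 for mutator. Apart from the mutator array, in Cy5 at 0.06, their sign followed the dye given in the titles. The arrays with PE RNA in Cy3 stood at 0.55 and 0.60, and the 5 arrays with PE RNA in Cy5 ran from −0.56 to 0.06. On arrays with the group in Cy5, the 4 LE values ran from 0.18 to 1.10 and the 4 UV-B values from 0.21 to 0.63, above the 5 PE values. Nothing is read from this, since the gene was chosen on its LE values and the share of all cDNAs that stand apart likewise was not computed. The lowest of the 5, −0.56, is from B,Pl PE replicate 2, which has conflicting dye labels and would hold PE RNA in Cy3 by its source name. On arrays with the group in Cy3, by contrast, LE stood at 0.61 and 0.61 and PE at 0.55 and 0.60, so the LE and PE arrays were alike in that orientation.

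One day after removal of the PE filter, the sam2 median was −0.24 and 0.12 in b,pl and 0.08 and 0.09 in B,Pl. Under CA, the B,Pl arrays against b,pl stood at 0.01 and 0.44, the bz2 array at −0.14 and the mutator array at −0.69. On the mutator CA array 0 of the 32 cDNAs were positive, and sam2 lay at the 6.19th percentile of that array.

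**Figure D1:**
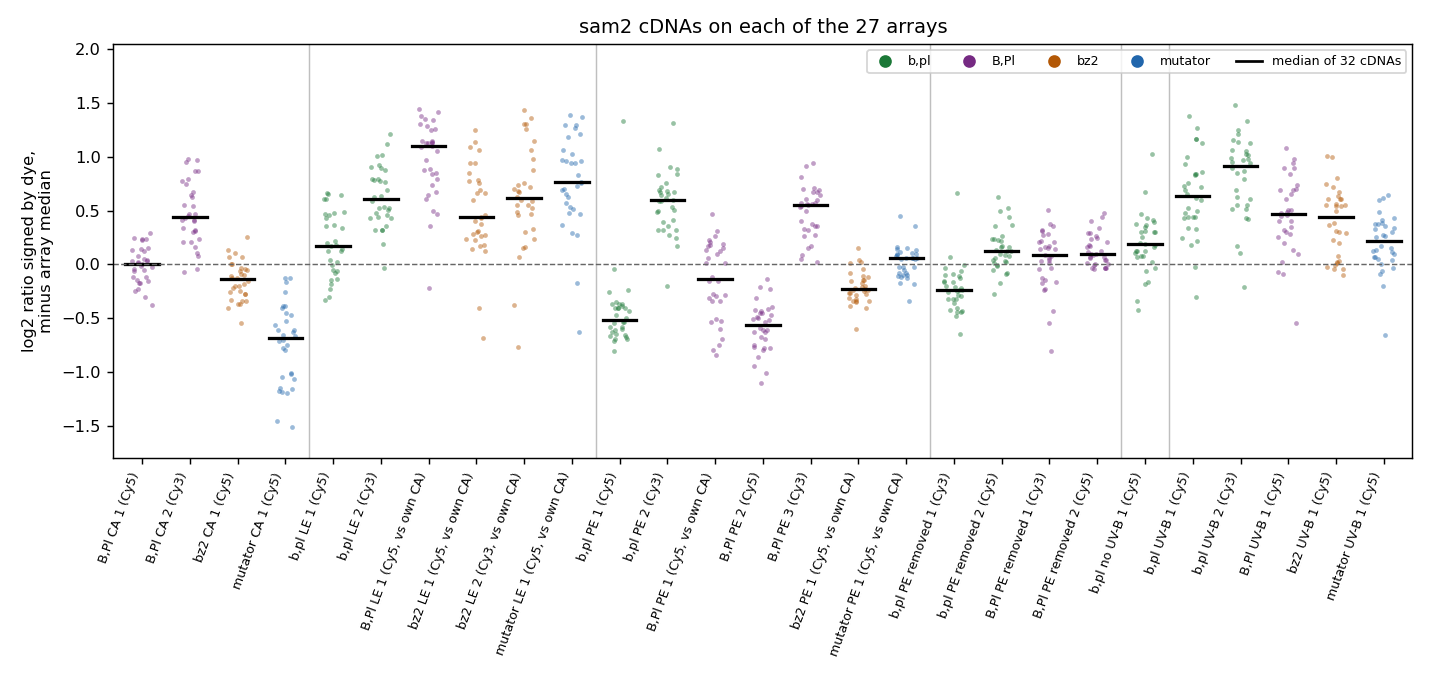
Each point is 1 of the 32 sam2 cDNAs on 1 array, as the log2 ratio signed by dye minus the array median (vertical axis), and each black line is the median of the 32. Arrays are ordered by CA, LE, PE, PE removed, greenhouse with no UV-B and greenhouse UV-B, coloured by genotype, with the dye of the group in brackets. The 6 LE and 5 UV-B medians lie above 0, while the PE medians run from −0.56 to 0.60.

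A difference between groups changes the sign of the deposited ratio between the arrays of a dye swap, and 8 pairs of arrays formed such swaps. For b,pl UV-B the deposited sam2 median, after centring, was 0.63 with the group in Cy5 and −0.92 with it in Cy3, and 31 of 32 cDNAs changed sign. For bz2 LE it was 0.44 and −0.61, with 32 of 32 changing sign, and for b,pl LE 0.18 and −0.61, with 23 of 32. Over all cDNAs the shares that changed sign on these 3 pairs were 64.1%, 72.7% and 58.1%.

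The PE pairs behaved otherwise. For b,pl PE the deposited medians were −0.52 and −0.60, with 2 of 32 cDNAs changing sign, and for B,Pl PE −0.56 and −0.55, with 0 of 32. Over all cDNAs 45.8% and 24.8% changed sign on these pairs. The B,Pl PE pair contains B,Pl PE replicate 2, whose labels give conflicting dyes. If its source name holds, its 2 arrays share an orientation and form no swap, and the same applies to the pair of b,pl PE removed. For B,Pl CA the pair stood at 0.01 and −0.44, for B,Pl PE removed at 0.09 and −0.08, and for b,pl PE removed at 0.12 and 0.24. The values of the b,pl PE and B,Pl PE pairs cancel when read by dye. Read as group over other channel, they stand at −0.56 in both genotypes, each relative to b,pl CA. B,Pl PE replicate 1 is in neither pair and stood at −0.13 relative to B,Pl CA. Which reading holds for the PE arrays was not tested, since channel intensities were not analysed here.

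**Figure D2:**
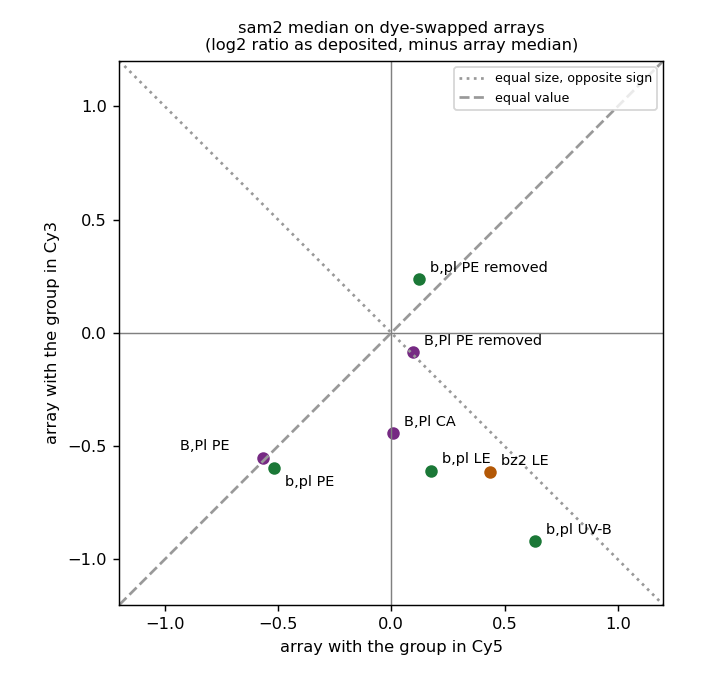
The sam2 median over 32 cDNAs, as the deposited log2 ratio minus the array median, on the array with the group in Cy5 (horizontal axis) and on its dye swap (vertical axis). A difference between groups falls on the dotted line, a value that ignores the labels on the dashed one. b,pl UV-B and bz2 LE lie near the dotted line, b,pl PE and B,Pl PE on or near the dashed one, and the pairs of B,Pl PE and b,pl PE removed each hold an array with conflicting dye labels.

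All arrays were then fitted together, with 18 groups relative to b,pl CA and a dye term, once for each cDNA and once for the median of the 32 cDNAs. The dye term of the sam2 median was −0.19 (SE 0.085), and it was negative for 31 of the 32 cDNAs. The residual SD of the sam2 median was 0.347 on 8 degrees of freedom. The highest group value was 1.44 (SE 0.41) for B,Pl LE. Below it stood b,pl UV-B at 0.78 (SE 0.25), B,Pl UV-B at 0.66 (SE 0.36), bz2 UV-B at 0.63 (SE 0.36), bz2 LE at 0.58 (SE 0.43) and mutator LE at 0.46 (SE 0.52).

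The values of mutator UV-B, b,pl LE and b,pl no UV-B were 0.40 (SE 0.36), 0.39 (SE 0.25) and 0.38 (SE 0.36). From B,Pl CA at 0.15 (SE 0.21) to b,pl PE removed at −0.06 (SE 0.25) there was a run of 7 groups near 0, which held the CA groups of B,Pl and bz2, the PE groups of b,pl, B,Pl and bz2, and both PE removed groups. The lowest were mutator PE at −0.25 (SE 0.52) and mutator CA at −0.50 (SE 0.36). Of the 17 steps between neighbours in this order, the step from B,Pl LE to b,pl UV-B was the largest in units of its SE, 0.67 with an SE of 0.48, and the others were smaller than their own SE, so the order of neighbours is not resolved.

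**Figure D3:**
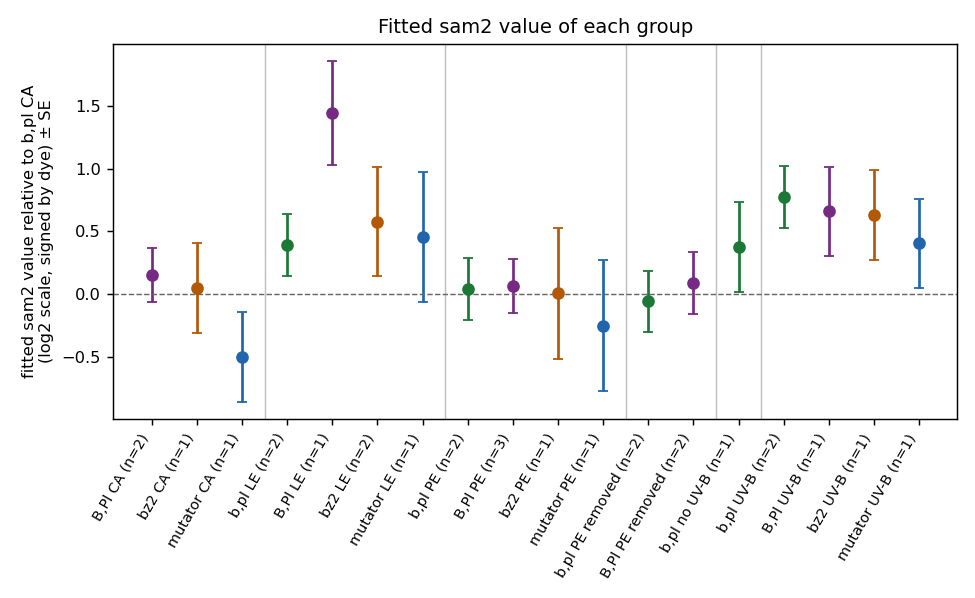
Fitted value of the sam2 median for each group relative to b,pl CA (log2 scale, signed by dye, dye term taken out), with bars of 1 SE and the number of arrays in brackets. B,Pl LE stands highest at 1.44 and mutator CA lowest at −0.50, and the PE and PE removed groups lie between −0.25 and 0.09.

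Against the CA plants of the same genotype, LE gave 0.39 (SE 0.25) in b,pl, 1.29 (SE 0.36) in B,Pl, 0.52 (SE 0.25) in bz2 and 0.95 (SE 0.36) in mutator. Read as group over other channel, the values were −0.22, 0.85, −0.09 and 0.52, so the sign in b,pl and bz2 depends on that reading. Of the 32 cDNAs, 29 were positive in all 4 genotypes, against 18.3% of all cDNAs. The value of the LE difference was largest in B,Pl for 27 cDNAs and in mutator for 4. The difference between the LE values of B,Pl and b,pl was 0.90 (SE 0.43), with 31 of 32 cDNAs positive, and 0 of them passed limma's test at an adjusted p under 0.05 (2 had an unadjusted p under 0.05), beside 0.112% of all cDNAs called. For bz2 against B,Pl it was −0.77 (SE 0.43), with 0 of 32 positive and 0 passing at any p under 0.05, beside 0.279% called. Genotypes were thus not shown to differ in the LE value of sam2.

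Averaged over the 4 genotypes, LE minus CA was 0.79 (SE 0.16), or 0.27 if values are read as group over other channel. By dye it was positive in 30 of 32 cDNAs, while the median of all cDNAs was −0.0013 and 49.8% of them were positive. In this comparison 14 of the 32 cDNAs passed limma's test (adjusted p under 0.05 over 5361 cDNAs), beside 1.29% of all cDNAs called, 0.914% in the positive direction like these 14. Nothing is read from that count, because the gene was chosen on this comparison. It also rests on single arrays: it was 0 without b,pl LE replicate 2, 1 when bz2 LE replicate 1 or B,Pl CA replicate 1 was left out, 2 when bz2 LE replicate 2 was, 6 when any single UV-B array of b,pl was and 7 when B,Pl PE replicate 1 was. The sam2 median itself stayed between 0.765 and 0.826 over the 25 arrays that could be left out singly. The B,Pl LE array, the highest of all, and the mutator LE array are the only arrays of their groups and could not be left out. In the single genotypes 0 of 32 passed, beside 0% of cDNAs called in b,pl, 0.242% in B,Pl (0.13% positive), 0.556% in bz2 (0.185% positive) and 0.0557% in mutator (0.0186% positive). At an unadjusted p under 0.05 the counts in limma were 4, 28, 16 and 19 of 32, against 6.56%, 4.36%, 14.3% and 5.97% of all cDNAs. These counts are a description too, since the gene was chosen on its LE values.

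In the greenhouse with UV-B, b,pl stood 0.78 (SE 0.25) from b,pl CA, with 31 of 32 cDNAs positive. With the sign of b,pl UV-B replicate 2 turned, or read as group over other channel, the value was −0.14, and in the first case the residual variance of the sam2 median rose from 0.120 to 0.327. In limma 0 of the 32 cDNAs passed (lowest adjusted p 0.152), beside 0% of all cDNAs called, and 21 had an unadjusted p under 0.05, 65.6% of the members against 13.0% of all cDNAs. For b,pl with no UV-B the value was 0.38 (SE 0.36), with 28 of 32 positive and 0 passing in limma beside 0% called. At an unadjusted p under 0.05 there were 2, or 6.25% of the members against 7.12% of all cDNAs. UV-B minus no UV-B was 0.40 (SE 0.43), with 27 of 32 positive and again 0 passing in limma beside 0% called. At an unadjusted p under 0.05 there were 3 of 32, against 6.03% of all cDNAs. A difference between the greenhouse groups beyond their error was thus not shown. With replicate 2 turned that difference was −0.41.

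Set against CA plants of their own genotype, which was not planned and was added with the data in view, the UV-B values were 0.51 (SE 0.42) in B,Pl, 0.58 (SE 0.49) in bz2 and 0.90 (SE 0.49) in mutator. In all 4 genotypes 26 of the 32 cDNAs were positive, against 10.9% of all cDNAs. The mean over the 4 genotypes was 0.69 (SE 0.21), with 31 of 32 cDNAs positive. In limma 0 of 32 passed (lowest adjusted p 0.175), beside 0.0187% of all cDNAs called, and 24 of 32 had an unadjusted p under 0.05, against 6.99% of all cDNAs. The mutator value uses the mutator CA array, one of those with conflicting dye labels; with the sign of all 4 such arrays turned it was −0.47 and the mean 0.23. The greenhouse and the filters differ in more than UV-B, and the LE and UV-B values are given side by side. LE minus UV-B was 0.10 (SE 0.26) on average over genotypes, with 19 of 32 cDNAs positive and 0 passing in limma, beside 0.0188% called and with 1 at an unadjusted p under 0.05. For B,Pl, bz2 and mutator it rests on their CA arrays, which link LE to UV-B, and with the 4 arrays of conflicting labels turned, an alternative added with the data in view, the average was 0.54.

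Between genotypes at greenhouse UV-B, the difference from b,pl was −0.12 (SE 0.43) for B,Pl, −0.14 (SE 0.43) for bz2 and −0.37 (SE 0.43) for mutator. With b,pl UV-B replicate 2 turned, these became 0.69, 0.66 and 0.44. Under CA, B,Pl stood at 0.15 (SE 0.21), bz2 at 0.05 (SE 0.36) and mutator at −0.50 (SE 0.36) relative to b,pl, with 28, 17 and 1 of 32 cDNAs positive. The mutator value was 0.84 with the 4 arrays of conflicting labels turned. In these 6 comparisons 0 sam2 cDNAs passed in limma, beside 0% to 0.0371% of all cDNAs called, and at an unadjusted p under 0.05 the most were 8 of 32, for mutator under CA, against 4.68% of all cDNAs.

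PE minus CA was 0.04 (SE 0.25) in b,pl, −0.09 (SE 0.25) in B,Pl, −0.04 (SE 0.36) in bz2 and 0.25 (SE 0.36) in mutator, and 0.04 (SE 0.16) on average, with 15 of 32 cDNAs positive in the average. In limma 0 of 32 passed in the average, beside 0% of cDNAs called, and 1 had an unadjusted p under 0.05, against 11.4% of all cDNAs. In b,pl the near-zero value is the mean of opposite arrays: it was −0.38 without replicate 2 and 0.46 without replicate 1, and −0.56 once replicate 2 had its sign turned. LE minus PE, averaged over genotypes, was 0.75 (SE 0.21), with 30 of 32 cDNAs positive. In limma 0 passed (lowest adjusted p 0.0516) beside 0.318% called, and 26 of 32 had an unadjusted p under 0.05, against 22.6% of all cDNAs. As given above, LE values stood above PE values on arrays with the group in Cy5, from which nothing is read, and the values were alike on those with the group in Cy3.

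One day after the PE filter was removed, sam2 stood at −0.06 (SE 0.25) relative to CA in b,pl and at −0.06 (SE 0.33) in B,Pl. Relative to PE the values were −0.10 (SE 0.35) and 0.02 (SE 0.33). In limma 0 of 32 cDNAs passed in these 4 comparisons, beside 0% of cDNAs called in each. The most at an unadjusted p under 0.05 was 1, against 1.02% to 6.89% of all cDNAs. If b,pl PE removed replicate 1 is turned in sign, the b,pl values are 0.18 relative to CA and 0.14 relative to PE. In b,pl both comparisons changed sign with single arrays: relative to CA the value was 0.37 without PE removed replicate 1 and −0.48 without replicate 2, and relative to PE it ran from −0.52 to 0.33. In B,Pl it ran from −0.28 to 0.17 relative to CA.

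The 32 cDNAs are separate clones of 1 annotated gene and are not replicates of a condition. They may also pick up RNA of close S-adenosylmethionine synthetase genes, which cDNA spots do not separate. Over the 27 arrays, signed by dye, the 496 pairs of cDNAs had a median Pearson correlation of 0.79, from −0.41 to 0.97. The points share arrays and dyes, so this is a description. Within an array the SD between cDNAs ran from 0.148 to 0.487, with a median of 0.287, against an SD of 0.45 between the 27 array medians. The spots lay between spot 1252 and spot 15649 of 16200, and the number of the first spot and the mean LE value of a cDNA correlated at 0.14 over the 32 cDNAs.

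After these values were seen, the 2 cDNAs with the lowest correlation to the median of the others were set apart. Each of the other 30 correlated at 0.72 to 0.96 with the median of the others, a range that the split itself partly fixes. Their mean LE minus CA value ran from 0.41 to 1.26, their mean UV-B minus CA value from 0.26 to 1.06 and their mean PE minus CA value from −0.18 to 0.16. The 3 with the highest mean LE value began at spots 12931, 4981 and 9751, at 1.26, 1.21 and 1.21. The cDNA at spot 12931 stood at 0.65 in b,pl, 1.58 in B,Pl, 1.27 in bz2 and 1.55 in mutator.

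The remaining pair did not follow the others. The cDNA beginning at spot 2254 correlated at −0.10 with the median of the others, and the one beginning at spot 7450 at −0.20. Together with the cDNA at spot 1372, at 0.41, they had the lowest mean LE values, −0.09 and −0.27. Under LE the cDNA at spot 7450 was negative in all 4 genotypes, from −0.59 in bz2 to −0.04 in b,pl. The cDNA at spot 2254 stood at 0.24 in b,pl, 0.46 in B,Pl, and −0.53 in both bz2 and mutator. It alone of the 32 stood apart under PE in b,pl, at 1.32 (SE 0.30, limma adjusted p = 0.391), where its signed values were 1.34 and 1.31 on arrays of opposite dye, while the sam2 median was −0.52 and 0.60. The annotation gives all 32 the same gene, and whether these clones carry it was not tested.

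**Figure D4:**
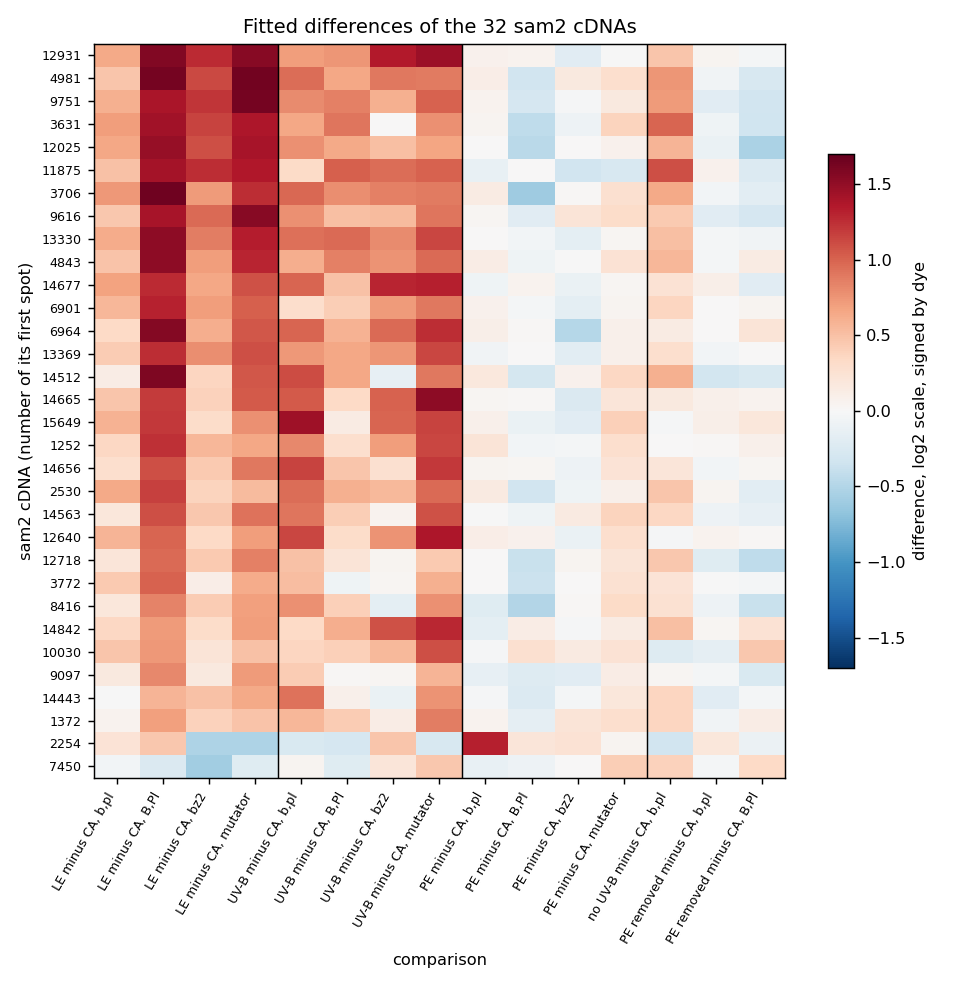
Fitted differences (colour, log2 scale, signed by dye) of the 32 sam2 cDNAs, named by their first spot and ordered by their mean LE minus CA value, in 15 comparisons. LE and UV-B columns are positive for nearly all cDNAs. PE and PE removed columns have medians near 0, apart from PE in mutator, at 0.23 with 30 of 32 positive. In b,pl and B,Pl the PE values combine arrays of opposite sign. The bottom rows, spots 2254 and 7450, differ from the rest.

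Of the other genes that make or use methionine and S-adenosylmethionine, few were recognised in the annotation of the array. LOC541942 (21 cDNAs), with the synonym csu503(met), was not counted among them, and whether it encodes such an enzyme was not checked. Its gene median correlated with that of sam2 at Pearson −0.30 over the 18 fitted group values and −0.29 over the 27 arrays. Cystathionine gamma-synthase cgs1 (LOC541650), which feeds the methionine pathway, had 1 cDNA. Its LE minus CA value was 0.85 (SE 0.18) in b,pl, 0.94 (SE 0.27) in B,Pl, 0.54 (SE 0.18) in bz2 and 0.38 (SE 0.27) in mutator. The mean over genotypes, 0.68 (SE 0.12), passed limma's test (adjusted p = 0.026), beside 1.29% of all cDNAs called. Whether cgs1 passes with single arrays left out was not computed. At greenhouse UV-B the cgs1 mean was 0.51 (SE 0.16) and under PE 0.12 (SE 0.12), neither of which passed (limma adjusted p of 0.328 and 0.68). In b,pl, cgs1 stood at 0.46 (SE 0.18) with UV-B and at 0.65 (SE 0.27) with no UV-B. UV-B minus no UV-B was −0.19 (SE 0.32). PE removed minus CA was 0.41 (SE 0.18) in b,pl and 0.09 (SE 0.24) in B,Pl.

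PEAMT, the phosphoethanolamine methyltransferase of choline synthesis and a user of S-adenosylmethionine, had 5 cDNAs, at a median of −0.12 under LE on average, with 2 of 5 positive and 0 passing in limma (lowest adjusted p = 0.179). The homocysteine S-methyltransferase HMT-2 (LOC541874), named after its values were seen, had 1 cDNA at −0.02 (SE 0.15) under LE and at −0.80 (SE 0.20) at greenhouse UV-B, the opposite sign to sam2, without passing (limma adjusted p = 0.201). In b,pl, HMT-2 stood at −0.79 (SE 0.23) with UV-B and lower, at −1.14 (SE 0.33), in the greenhouse with no UV-B. UV-B minus no UV-B was 0.35 (SE 0.40) for HMT-2, and none of these b,pl values passed in limma. INO1 (LOC542540), the inositol phosphate synthase, had 19 cDNAs with a median of 1.26 under LE and 1.41 at UV-B on average, all 19 positive in each. In the greenhouse group with no UV-B its cDNA median was 2.01 and that of sam2 0.37, a difference between genes that was not tested.

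Among 109 annotated genes with at least 2 cDNAs, likeness to sam2 was measured as the Pearson correlation of gene medians over the 18 fitted group values, which share b,pl CA and many arrays. The 5 most alike were pcna2 (LOC542357, the sliding clamp of DNA replication, 2 cDNAs) at 0.77, GF14-6 (LOC542291, a 14-3-3 protein, 7 cDNAs) at 0.71, INO1 at 0.67, LOC541696 (2 cDNAs) at 0.63 and the adenine nucleotide translocator ANT1 (LOC542386, 12 cDNAs) at 0.62. Over the 27 arrays signed by dye, with the dye effect left in, these 5 stood at 0.64, 0.71, 0.82, 0.25 and 0.22, so INO1 was then the most alike of the 5. The 2 pcna2 cDNAs disagreed, with mean LE minus CA values of 0.88 and −0.16. The pcna2 median is thus the midpoint of unlike clones. The 3 least alike were wee1 (LOC541768, a kinase that holds back cell division, 2 cDNAs) at −0.63, the starch branching enzyme gene sbe1 (LOC542315, 3 cDNAs) at −0.59 and the growth-regulating factor gene GRF8 (LOC100101540, 2 cDNAs) at −0.58. Over the 27 arrays these 3 stood at −0.37, −0.32 and −0.30. Other genes stood lower on that measure, such as his1 (LOC542385, 11 cDNAs) at −0.61.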

How the data were processed

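Each array's deposited table lists log2 ratios made by the authors for 16200 spots. That the logarithm has base 2 follows from the values over 2 in size, 16.3% of which become whole numbers (tolerance 0.0001) when raised as powers of 2, and 0.075% as powers of e. Scanner settings, background correction, normalisation and which channel is the numerator were not given in the sources. Deposited values were present for 14715 to 16122 spots per array, and array medians ran from −0.691 to 0.367. The number of arrays limits the precision.

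The 3 consecutive spots of a cDNA were averaged (median SD within triplicates 0.038, against 0.185 when shifted by 1 spot), and the median of each array was then subtracted. Gene names came from an old probe annotation, which named 811 of 5400 cDNAs, with synonyms from a RefSeq gene list (Zm-B73-REFERENCE-NAM-5.0). No coordinates were used. A linear model with 19 terms (18 groups and dye) was solved by least squares per cDNA over the arrays that measured it, and variances were shrunk with squeezeVar of limma 3.58.1 in R 4.3.3, which added 2.42 to 8 residual degrees of freedom. P-values were two-sided and adjusted by Benjamini and Hochberg over all cDNAs tested, with a threshold of 0.05. SEs given for sam2 come from the same model fitted to the median of its 32 cDNAs, with no p. SEs of single cDNAs are the shrunken ones. The b,pl CA control shares its channel with the arrays it is compared with, and a group with 1 array is assumed to vary like the others. The fit was also run on simulated data with noise drawn independently for each cDNA. The sam2 cDNAs are correlated over arrays, so nothing about their counts is read from that run.

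The gene, the gene lists and the comparisons were chosen with earlier results of these data known. Named are all sam2 cDNAs, the annotated methionine and S-adenosylmethionine genes with INO1 beside them, the 5 genes most and the 3 least like sam2, the 3 sam2 cDNAs with the highest and the 3 with the lowest mean LE value, and those that pass. HMT-2 is outside this rule, and LOC541942 was not counted under it. UV-B minus CA within B,Pl, bz2 and mutator, its mean, the genotype differences in the LE and UV-B values and LE minus UV-B were added after the data were seen.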

Additional observations from a re-analysis of the deposited data

Results flagged for a closer look

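Under PE against CA of the same genotype, the sam2 median signed by dye was −0.13 on B,Pl PE replicate 1 and −0.23 on the bz2 array, and 0.057 on the mutator array. These single arrays stand on opposite sides of 0, which is what drew attention to them. The difference was not tested, the 3 values lie within the residual SD of 0.347 of each other, and after the dye term was taken out the bz2 and mutator values were −0.04 and 0.25. No group had 4 or more arrays, so single arrays were not examined for lying far from the others of their group.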

How the results depend on the processing

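In all, 33 results on sam2 were computed again under 12 other settings and with each of 27 arrays left out in turn, where the remaining arrays allowed it, which gave 1244 values, of which 60 moved. A value counted as moved when it shifted by more than the residual SD of 0.347, and a count when it left the range within 1.5 times. The causes were not tested. With no centring, LE minus CA was 0.873 in b,pl, PE minus CA −0.138 in mutator, bz2 minus b,pl under CA −0.382, UV-B minus CA 1.23 in bz2, and 0 cDNAs passed in the LE mean. With arrays scaled to equal spread, LE minus CA was 1.67 in B,Pl.

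Read as group over other channel, LE minus CA was −0.216, 0.854, −0.0884 and 0.515 in b,pl, B,Pl, bz2 and mutator and 0.266 on average, with 0 cDNAs passing. PE minus CA was then −0.558 in b,pl, −0.479 in bz2, −0.19 in mutator and −0.397 on average, and PE removed minus PE 0.739 in b,pl and 0.572 in B,Pl. In the b,pl greenhouse groups, UV-B minus CA was −0.142, no UV-B minus CA −0.0591 and UV-B minus no UV-B −0.0832. Relative to b,pl, B,Pl, bz2 and mutator stood at −0.207, −0.386 and −0.932 under CA and at 0.365, 0.336 and 0.11 at UV-B.

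With the sign of 1 array turned, PE removed minus PE was 0.458 in B,Pl (B,Pl PE replicate 3 turned). With b,pl PE replicate 2 turned, PE minus CA was −0.558 and PE removed minus PE 0.501 in b,pl. With b,pl PE removed replicate 1 turned, 1 cDNA passed for LE in bz2. With b,pl UV-B replicate 2 turned, UV-B minus CA was −0.142, UV-B minus no UV-B −0.409, the UV-B differences of B,Pl, bz2 and mutator from b,pl 0.69, 0.661 and 0.436, and 0 cDNAs passed in the LE mean. With the 4 arrays of conflicting dye labels turned, PE removed minus PE was −0.39 in B,Pl, mutator minus b,pl under CA 0.84, and UV-B minus CA −0.471 in mutator and 0.231 on average. With no dye term, 7 cDNAs passed in the LE mean. Without the 3 arrays that lacked the most values, PE minus CA was −0.407 and PE removed minus PE 0.35 in b,pl, and 0 cDNAs passed.

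With single arrays left out, PE minus CA in b,pl ran from −0.379 to 0.458, PE removed minus CA in b,pl from −0.479 to 0.365, PE removed minus PE in b,pl from −0.519 to 0.326, and the count of cDNAs passing in the LE mean from 0 to 15. No paired analysis was possible because the replicate numbers follow accession order and pair no arrays.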
